A study of Mus musculus with 38 samples.

Results

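The regions described here are the H3K4me1 domains and H3K27ac peaks of uninduced mouse epidermal stem cells (EpdSCs), sorted into 3 classes by whether the other mark was called at the same place. A domain was called active when at least 1 base of it overlapped an H3K27ac peak of the same time point and primed when no H3K27ac peak touched it, and an H3K27ac peak that touched no domain was called H3K27ac-only. The 87287 domains fell into 19945 active and 67342 primed domains, and 1229 of the 30268 H3K27ac peaks were H3K27ac-only, which gave 88516 regions out of the 540407 intervals in the skin lists of both marks over all time points. The cells came from male K14rtTA; TRE-myc-Sox9 mice, in which the Krt14 promoter drives the doxycycline (DOX) sensitive activator in skin epithelium and a TRE element controls a MYC-tagged Sox9. D0 is the state with both transgenes present and no induction. At W1, W2 and W6 the animals had received DOX from postnatal day 21 by injection and then in the feed. The W12 libraries were made from neonatal skin grafted onto Nude hosts, where by the study's methods DOX began once the grafts had healed. At every time point EpdSCs were sorted from back skin as CD31, CD45, CD117 and CD140a negative, CD49f high, CD34 negative and Ly6A high cells, a gate that removes endothelial and immune cells, melanocytes and fibroblasts that carry those surface markers. Chromatin was cut with MNase and profiled by barcoded MINT-ChIP. Each mark had 2 libraries at D0, one of high and one of low digestion, and each library held both biological replicates. The authors pooled these before calling, so D0 has 1 list per mark, no spread between replicates can be measured, and no difference below carries a p-value. Intervals in brackets are exact 95% binomial or order-statistic intervals that cover counting error alone, and because neighbouring regions share the same pooled reads they are narrower than the uncertainty between animals would be. In bulk cells a mark in fewer cells and less of the mark per cell cannot be told apart.

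H3K4me1 is laid down at enhancers by the MLL3 and MLL4 methyltransferases and is present both at enhancers in use and at those that are marked but idle. H3K27ac, written by p300 and CBP, is found at enhancers and promoters in use, so that H3K4me1 without H3K27ac is the usual description of a primed enhancer. At promoters of active genes the start site itself is dominated by H3K4me3, and H3K4me1 sits on its flanks. EpdSCs are the basal cells of the interfollicular epidermis, which adhere to the basement membrane through integrins, express *Krt5*, *Krt14* and *Trp63*, and give rise to the differentiated suprabasal layers.

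Sequences of 5 regions are shown to give one example of each class, with 200 bp on the plus strand of GRCm38 as in the RefSeq genome sequence. Capitals mark exact matches, on either strand, to any of 9 motifs. The AP1 site, bound by FOS and JUN dimers, was searched as TGANTCA. The site of GATA factors was searched as AGATAA, and that of Krüppel-like (KLF) factors as GGGTGTG. The GC box of SP factors was GGGGCGGGG, the ETS site CCGGAAGT, the cyclic AMP response element (CRE) TGACGTCA and the SOX site AACAATGG. The site of TEAD factors, which work with YAP, was GGAATG, and the last was the p53 family motif. None of these words contains another, and a match is a description of the letters, not of a bound factor. The first window surrounds the H3K27ac summit of the distal active domain with the highest H3K27ac score, whose peak had a fold enrichment of 86.0. The domain lies in intergenic DNA, 15137 bp from the nearest annotated start site of any gene. The nearest protein-coding start site, that of *Vcpkmt*, is 36828 bp away.
Active, near Vcpkmt, chr12:69537938-69538137 (+): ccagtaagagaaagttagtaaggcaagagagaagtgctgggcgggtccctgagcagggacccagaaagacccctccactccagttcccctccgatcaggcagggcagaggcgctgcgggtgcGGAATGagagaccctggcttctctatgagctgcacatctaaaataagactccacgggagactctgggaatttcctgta
The window holds 1 TEAD match, at position 123. The next is the centre of the primed domain that ranked first by p-value and width, inside an intron of *Ncoa3*, a nuclear receptor coactivator gene.
Primed, Ncoa3, chr2:166021301-166021500 (+): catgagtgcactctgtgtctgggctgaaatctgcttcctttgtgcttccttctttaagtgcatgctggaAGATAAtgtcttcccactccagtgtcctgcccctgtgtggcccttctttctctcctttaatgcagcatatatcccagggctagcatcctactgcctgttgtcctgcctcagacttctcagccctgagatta
It holds 1 GATA match, at position 70. A primed domain that first met an H3K27ac peak at W2 and kept one at W6 and W12 is shown by its centre. It lies in intergenic DNA, 11249 bp from the nearest annotated start site of any gene. The nearest protein-coding start site is 140436 bp away, that of *Gas1*, which encodes a Hedgehog co-receptor.
Primed at D0 and acetylated from W2, near Gas1, chr13:60318901-60319100 (+): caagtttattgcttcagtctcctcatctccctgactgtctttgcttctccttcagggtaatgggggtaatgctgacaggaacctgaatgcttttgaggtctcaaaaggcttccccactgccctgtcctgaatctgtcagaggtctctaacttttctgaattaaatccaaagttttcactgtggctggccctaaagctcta
The window held none of the 9 motifs. The last pair surround the summits of H3K27ac-only peaks. The first is the highest-scoring distal one, 35509 bp from the nearest annotated start site of any gene, with *Ezh2* as the nearest protein-coding gene. The second is the highest-scoring one over a start site, that of *Gm10800*.
H3K27ac-only, distal, near Ezh2, chr6:47672796-47672995 (+): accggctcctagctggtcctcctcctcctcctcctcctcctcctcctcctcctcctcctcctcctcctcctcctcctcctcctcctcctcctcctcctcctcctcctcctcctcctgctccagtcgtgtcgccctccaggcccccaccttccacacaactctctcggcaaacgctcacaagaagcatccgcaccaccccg
H3K27ac-only, over a start site, Gm10800, chr2:98667007-98667206 (+): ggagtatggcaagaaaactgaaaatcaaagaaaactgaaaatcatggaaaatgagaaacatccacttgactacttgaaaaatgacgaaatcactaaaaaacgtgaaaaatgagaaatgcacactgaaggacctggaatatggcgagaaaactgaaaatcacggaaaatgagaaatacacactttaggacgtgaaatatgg
Neither held a motif. The first runs through a long CTC repeat and 57.5% of its bases are soft-masked as repeat, while all of the bases of the second are masked (100%).

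Active domains were the wide ones. Their median width was 5200 bp (5000 to 5200), with quartiles of 3200 and 8800 bp, against 2000 bp for primed domains, whose quartiles were 1200 and 3000 bp. The widest active domain spanned 142600 bp and the widest primed domain 34400 bp. Active domains made up 22.8% of all domains (22.6 to 23.1) but covered 142 Mb, or 45.9% of the bases under domains. The p-value that the authors listed was exactly 0 for 7459 active domains (37.4%) and for 2228 primed ones (3.31%). H3K27ac peaks were much shorter than either kind of domain. Peaks that touched a domain had a median width of 642 bp (635 to 649) and a median fold enrichment of 5.998, and H3K27ac-only peaks had a median width of 468 bp (448 to 490) and a median fold of 5.33, with a highest fold of 65.97 against 94.6 for peaks in domains. The H3K27ac-only peaks were 4.06% of all H3K27ac peaks (3.84 to 4.29).

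**Figure D1:**
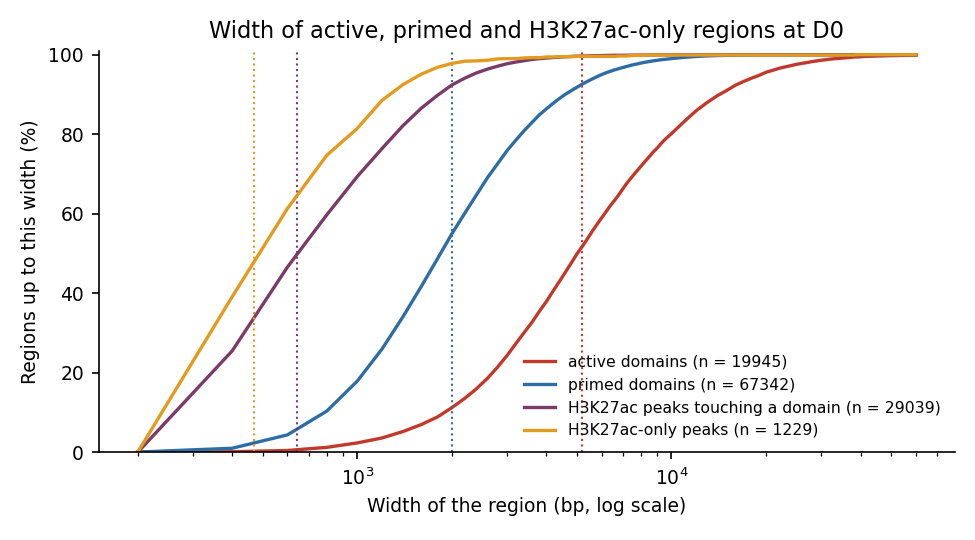
Cumulative share of regions (y axis, percent) up to a given width (x axis, bp, log scale) for the 3 classes of D0 regions. 24.4% of active domains were no wider than 3000 bp against 75.9% of primed domains, and the curve of H3K27ac-only peaks lies to the left of both.

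The share of domains that met an H3K27ac peak was higher in each wider bin. Among domains up to 800 bp wide 3.50% were active, and the share was 7.22% at 1201 to 2000 bp, 32.2% at 3001 to 5000 bp, 83.0% at 10001 to 20000 bp and 97.5% above 20000 bp (882 of 905). A wider domain offers more bases for an overlap, so the relation with width is partly set by the rule. Per Mb of domain the number of active domains did not climb steadily, with 50.6 up to 800 bp, 81.7 at 3001 to 5000 bp and 33.1 above 20000 bp. Near start sites it was 255 in the narrowest and 32.5 in the widest bin, and for distal domains 6.53 and 34.8. Position was related to the active share at equal width. Of domains of 3001 to 5000 bp, 20.1% of those over 2500 bp from any annotated start site (distal) and 52.8% of those closer to one were active. Of domains up to 800 bp, 0.453% of the distal and 17.6% of the near ones were active. Among the widest domains the gap had almost closed, with 96.1% and 98.0%.

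**Figure D2:**
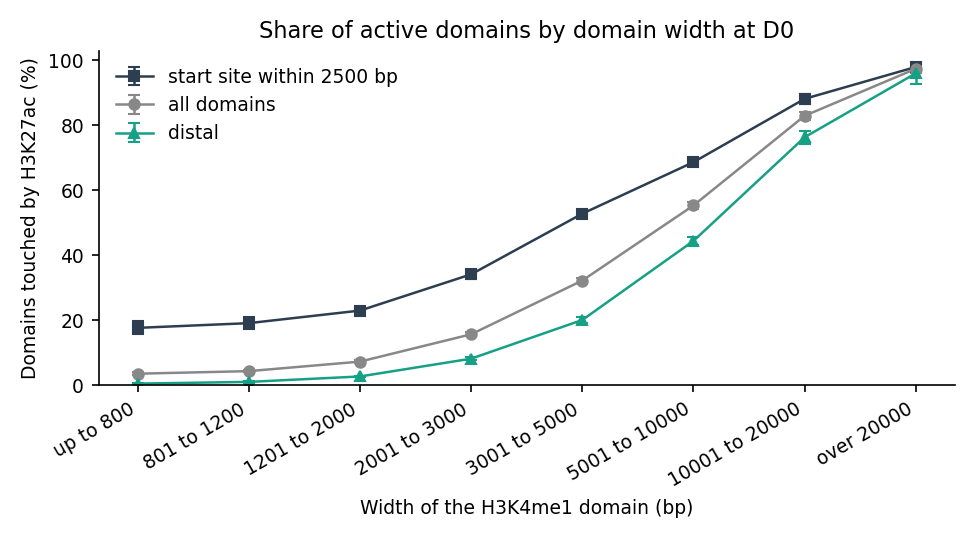
Share of D0 H3K4me1 domains that overlapped an H3K27ac peak (y axis, percent) by domain width (x axis, bp), for all domains, distal domains and domains within 2500 bp of a start site, with exact 95% intervals. The share is higher near start sites in each width bin and exceeds 96% for both above 20000 bp.

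Within an active domain H3K27ac was usually a single narrow block. One peak was present in 14752 active domains (74.0%), 2 peaks in 2963 (14.9%) and at least 3 in 2230 (11.2%), and 77 domains held 10 or more, up to 33. The acetylated bases covered a median of 15.4% of the domain (quartiles 8.83% and 25.1%). Of the 26457 peak summits that lay inside a domain, 63.8% were in the central part that makes up 50% of its length. For domains with 1 peak this was 69.2%. Domains with more peaks were wider and their best peak was stronger. Both relations are partly set in advance, since a wider domain has room for more peaks and the best peak is picked from all of them. The median width was 4200 bp with 1 peak, 14000 bp with 3 to 5 and 48600 bp with 10 or more, and the median fold of the best peak was 7.33, 10.7 and 16.7. The share of these domains that were distal was 38.1%, 37.4% and 16.9%.

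Active domains lay close to start sites and primed domains did not. The distal share was 38.4% of active domains (37.8 to 39.1), 79.1% of primed domains (78.8 to 79.4) and 40.4% of H3K27ac-only peaks (37.7 to 43.2). The median distance to the nearest start site was 511 bp for active domains, 12308 bp for primed domains and 374 bp for H3K27ac-only peaks. An annotated start site lay under 39.01% of active domains, 10.9% of primed domains and 32.4% of H3K27ac-only peaks. Once distal, the classes were alike in how far they lay from a start site, with medians of 17530, 17986 and 18723 bp. The centre of the region was in an exon for 9.50% of active domains, 6.52% of primed domains and 24.7% of H3K27ac-only peaks, and in an intron for 60.1%, 53.2% and 48.3%.

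The contrast in distance was present at equal width. At 3001 to 5000 bp 39.2% of active domains (37.8 to 40.5) and 74.2% of primed domains (73.32 to 74.99) were distal, and at 10001 to 20000 bp the shares were 40.7% (38.9 to 42.4) and 61.3% (57.4 to 65.1). For the narrowest domains the contrast was greatest, 10.6% against 84.8%. Peaks near start sites were also stronger than distal ones in both places. In domains, the median fold was 8.66 near a start site (12287 peaks) and 5.33 when distal (16752 peaks), and among H3K27ac-only peaks it was 7.997 (732 peaks) and 3.998 (497 peaks).

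Many H3K27ac-only peaks lay in gaps between H3K4me1 domains at start sites. Of the 732 H3K27ac-only peaks within 2500 bp of a start site, 393 (53.7%, 50 to 57.3) had a domain within 2500 bp on both sides, 84.6% had one on at least one side, and the nearest domain was a median of 293.5 bp away. Of the 497 distal ones only 25 (5.03%) were flanked on both sides and the nearest domain was a median of 6950 bp away. Beside this class, 2582 peaks did touch a domain but had their summit outside it, and 97.6% of these (97.0 to 98.2) lay near a start site, with a median width of 1496 bp and a median fold of 15.3. A peak that touched at least 2 domains (1360 peaks) bridged such a gap, and 97.4% of these lay over a start site, with a median fold of 19.3. The size and place of the H3K27ac-only class depended on the overlap rule. When the summit had to be inside the domain, 12.6% of peaks were H3K27ac-only, their median width was 1135 bp and 14.6% of them were distal, in place of 4.06%, 468 bp and 40.4%.

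A dip in H3K4me1 was visible at start sites with H3K27ac. Around 18418 protein-coding start sites with an H3K27ac peak within 1000 bp, a domain covered 63.7% at the start site itself, 79.2% at 600 bp upstream and 88.8% at 1200 bp downstream. The peaks covered 75.9% of these start sites and 83.4% of positions 200 bp downstream. Around the 23075 start sites with no H3K27ac nearby the profile had no dip, with domain cover of 38.1% at the start site, 26.1% at 1000 bp upstream and 32.9% at 1000 bp downstream. Domain cover had no dip at distal peaks either, since a domain covered 96.8% of their summits and 90.0% of positions 1000 bp away, while at peaks near start sites the cover was 75.01% at the summit and 82.7% at 1000 bp. These values are cover by called domains, so a dip in signal that did not split a domain would not show.

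**Figure D3:**
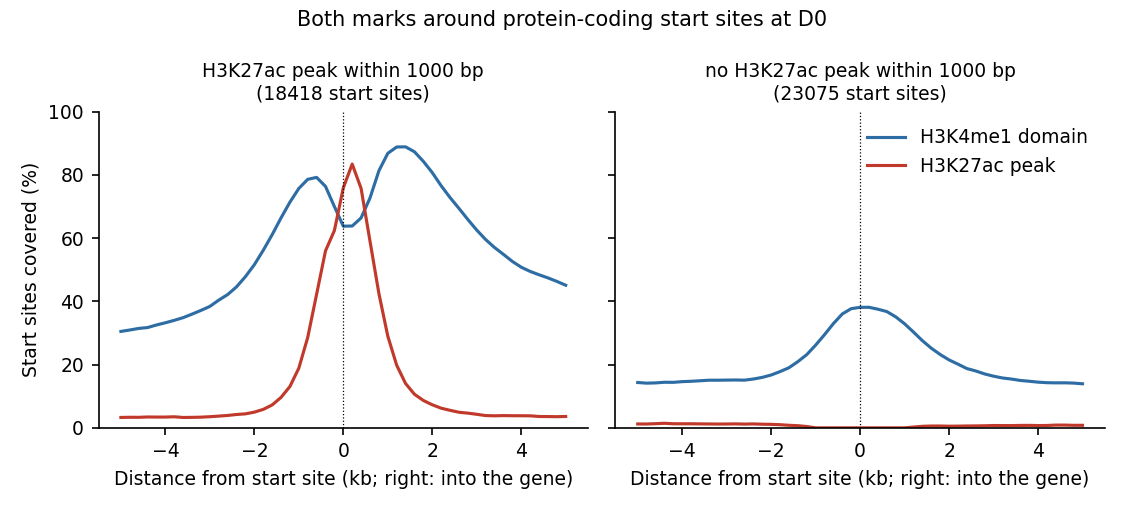
Percent of protein-coding start sites covered by an H3K4me1 domain or an H3K27ac peak (y axis) by distance from the start site (x axis, kb, negative upstream), for start sites with and without an H3K27ac peak within 1000 bp. Domain cover drops to 63.7% at acetylated start sites and is highest around them, 88.8%, at 1400 bp downstream.

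These gaps were GC rich. In the 500 bp around the summit, 86.3% of peaks that touched a domain with their summit outside it were like a CpG island (at least 50% GC and a ratio of observed to expected CpG of at least 0.6), against 17.8% of peaks with the summit inside a domain and 47.9% of H3K27ac-only peaks. These groups also differed in place, since 97.6%, 36.9% and 59.6% of them lay near a start site. Near start sites the share like a CpG island was 54.4% for peaks in domains and 75.8% for H3K27ac-only peaks. For promoters, taken as the 500 bp around the 5'-most start site of each protein-coding gene, 79.7% of those with both marks (78.9 to 80.5), 48.2% of those with H3K4me1 alone (46.9 to 49.5), 76.1% of those with H3K27ac alone (69.3 to 82.0, 188 genes) and 6.37% of those with neither mark were like a CpG island.

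Taken over all widths, distal active and distal primed domains had similar sequence at their centres. GC content was 45.6% and 45.0%, an AP1 match was found in 21.4% and 20.9% of 500 bp windows, a GATA match in 26.99% and 29.7%, a SOX match in 1.64% and 1.98% and a p53 family match in 2.56% and 2.95%. Of all distal domains 20.9% held an AP1 match. Within width bins the AP1 share was higher in active domains from 801 to 10000 bp, and lower up to 800 bp and at 10001 to 20000 bp. Up to 800 bp 14.8% of 27 distal active domains (4.19 to 33.7) and 25.6% of distal primed domains held an AP1 match, and at 801 to 1200 bp 26.1% (17.3 to 36.6) and 23.8% did. From 1201 to 5000 bp the active share was higher in each of the 3 bins, with 29.2% (24.98 to 33.8) against 21.02% (20.4 to 21.7) at 1201 to 2000 bp and 24.0% (22.2 to 26.0) against 17.5% (16.7 to 18.3) at 3001 to 5000 bp. At 10001 to 20000 bp the shares were 17.80% and 18.04%. Distal H3K27ac-only peaks differed more. Around their summits 11.9% held an AP1 match (9.16 to 15.0) against 23.3% of distal peaks in domains (22.7 to 24.0), a KLF match was found in 10.9% and 15.9%, and 40.0% of the windows were mostly masked as repeat against 5.04%. For comparison, 9.35% of 500 bp windows at protein-coding start sites held an AP1 match, and of the 300 bp promoters of 32851 genes in RefSeq 7.81% held an AP1, 11.2% a GATA, 7.95% a KLF, 11.4% a GC box, 3.89% an ETS, 1.79% a CRE, 1.05% a SOX, 14.7% a TEAD and 0.712% a p53 family match.

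Repeats stood out among the 10 strongest H3K27ac-only peaks but not among the 100 strongest. The 5 with the highest score lay at *Gm10800* (chr2:98666249-98667319, fold 18.7), *Gm10801* (chr2:98662233-98664081, fold 21.8), *Gm21738* (chr14:19415724-19419658, fold 16.03), in an intron 2012 bp from any start site and 37361 bp from that of *Rpusd4*, the nearest protein-coding gene (chr9:35305226-35305587, fold 9.49) and at *Gm10722* (chr9:3000018-3038388, fold 13.0). In their 500 bp windows 97.6%, 54.0%, 92.4%, 83.6% and 100% of bases were masked, and the last peak was 38371 bp long. Reads from near-identical repeat copies cannot be told apart by alignment, so the values of such peaks are uncertain. Of the 10 strongest H3K27ac-only peaks 5 were mostly masked, against 10 of the 100 strongest and 219 of the other 1129, and none of the 10 strongest peaks in domains was. The median share of masked bases was lower in the 100 strongest H3K27ac-only peaks, 6.7%, than in the rest, 10.6%.

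Chromosome X contributed more than its share of H3K27ac-only peaks. Of the 420 H3K27ac peaks on X 138 touched no domain (32.9%, 28.4 to 37.6), against 3.59% on the autosomes, whose individual shares ran from 2.93% to 4.38%. X held fewer regions for its length, with 11.9 domains and 2.46 peaks per Mb against 34.6 and 12.1 on autosomes, and 13.0% of its domains were active (11.6 to 14.6) against 23.1%. Of the X peaks without a domain 83.3% lay near a start site, against 57.2% of those on autosomes. Without chromosomes X and Y 3.59% of peaks were H3K27ac-only and their median width was 438.5 bp.

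Of the 5 active domains with the highest H3K27ac score 4 lay within 1000 bp of a start site. The first, with a fold of 94.6, was at *Cops5*, a subunit gene of the COP9 signalosome (chr1:10034601-10037800, in its intron 327 bp from a start site), and was followed by domains of *Ccdc18* (chr5:108133001-108134600) and *Tmed5* (chr5:108130401-108131800) on either side of a single peak of fold 94.0. The fourth was the intergenic domain near *Vcpkmt* (chr12:69534601-69546200) shown above, and the fifth was at *Oxsr1*, a kinase gene of the osmotic stress response (chr9:119318401-119321800, fold 84.0). All 5 met an H3K27ac peak at W1, W2 and W6 and an H3K4me1 domain at every later time point.

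The 5 primed domains with the smallest p-values were all centred in introns. They lay at *Ncoa3* (chr2:166004201-166038600, 34400 bp), *Dnmt3a*, the gene of a de novo DNA methyltransferase (chr12:3808001-3842000, 34000 bp), *Lgr6*, the gene of an R-spondin receptor found on epidermal and upper follicle stem cells (chr1:135075201-135106600, 31400 bp), *Clmn* (chr12:104833401-104862200, 28800 bp) and *Rere* (chr4:150387601-150416000, 28400 bp). The authors listed a p of 0 for all 5, and they were ordered by width. None had an H3K27ac peak at D0, and all 5 met one at W1 and at W12. Of all 23 primed domains over 20000 bp wide, 82.6% met a peak at W1 and 60.9% at W12. Over primed domains of any width these shares were 8.43% and 8.28%.

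Each protein-coding gene was next given a promoter state from the marks within 1000 bp of any of its annotated start sites, which is separate from the class of the region itself. A promoter with H3K4me1 alone in that window can still lie in a domain that is active through a peak farther away. Of 21938 protein-coding genes, 9584 had both marks (43.7%, called active), 5533 had H3K4me1 alone (25.2%, primed), 189 had H3K27ac alone (0.862%) and 6632 had neither (30.2%). These shares, for the 1000 bp window, are the background for the gene lists that follow. They are not the background for list shares given with another window. The lists were chosen with earlier results of these data known.

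The promoters that define the labelled cell type carried both marks. All 16 genes of basal epidermal structure and adhesion had an active promoter, against 43.7% of all genes. *Krt14* and *Krt5*, the basal keratin pair, had folds of 44.6 and 18.7 and domains of 15200 and 12400 bp. *Col17a1*, the hemidesmosome collagen, had the highest fold of the list, 66.6, in a domain of 25800 bp, and the integrins *Itga6* and *Itgb4* had 16.7 and 30.7. *Ly6a*, which encodes the sorted surface antigen, had 9.33. Markers of the cells removed by the gate were without H3K27ac at their promoters, other than *Pmel*, a melanosome gene, which had both marks. Of 10 immune genes annotated 4 were primed and 6 had neither mark, of 8 fibroblast genes 6 and 2, of 8 endothelial genes 6 and 2, and of 9 melanocyte genes 6 and 2 beside *Pmel*. Of 15 genes of distant lineages 7 were primed and 8 had neither mark, and all 14 housekeeping genes were active.

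**Figure D4:**
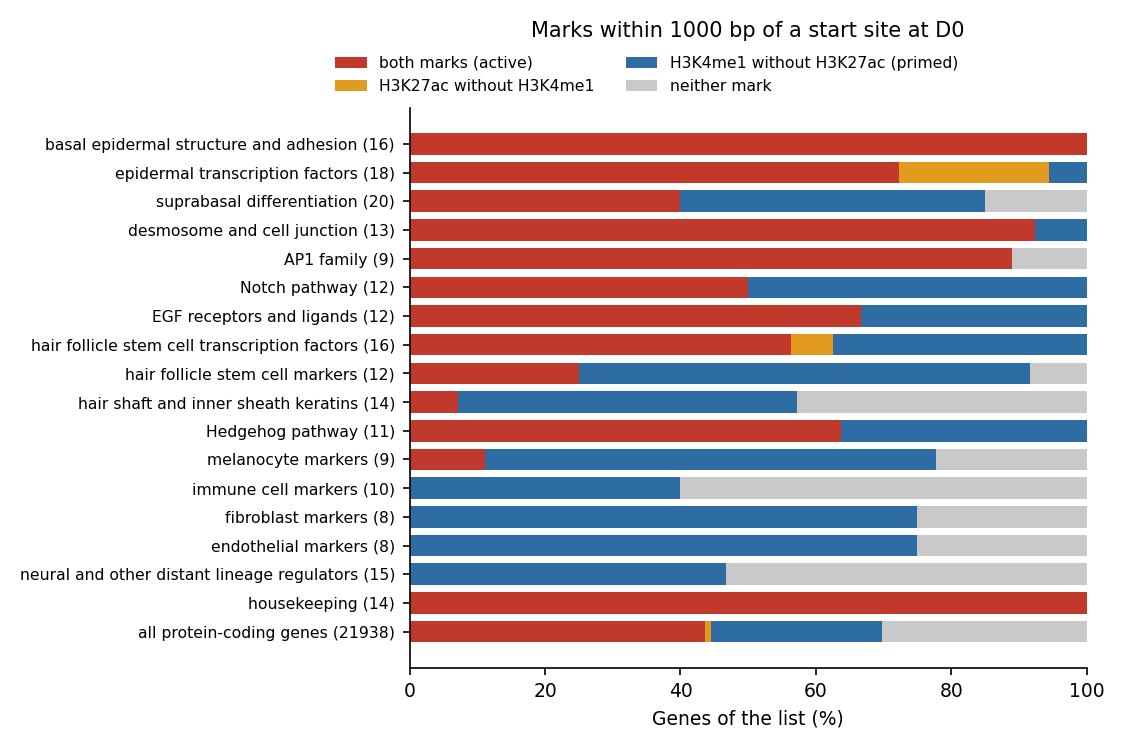
Promoter states of the genes of each list (y axis), given as the percent of genes whose promoter held both marks, H3K4me1 alone, H3K27ac alone or neither within 1000 bp (x axis, stacked bars from 0). All 16 basal genes and 14 housekeeping genes are active, and no immune, fibroblast or endothelial gene is, against 43.7% of all protein-coding genes.

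Most transcription factors of the epidermis had an active promoter, and a few had H3K27ac with H3K4me1 set back from the start site. Of 18 such genes 13 were active (72.2%), 1 was primed and 4 had H3K27ac alone within 1000 bp (22.2%, against 0.862% of all genes). The 4 were *Klf4* and *Grhl2*, which drive barrier formation, *Cebpa*, a differentiation factor, and *Maf*. A peak at *Klf4* had a fold of 22.7 and that at *Grhl2* 23.3, and the nearest domains began 1135 and 1436 bp from the start site, so the H3K4me1 lay just outside the window. The peaks of *Klf4*, *Grhl2* and *Cebpa* reached a domain and only that of *Maf*, with a fold of 5.33, did not. The count depended on the window, since 55.6% of the list had H3K27ac alone with a window of 250 bp and 0% with a window of 2500 bp. Among the active members *Hes1*, a Notch target, had a fold of 43.3, *Klf5* 32.0, *Gata3* 25.3 with a single peak of 19993 bp, and *Trp63*, the master regulator of stratified epithelium, 19.99. The primed one was *Prdm1*, a factor of late epidermal differentiation, with a domain of 3800 bp.

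Promoter sequences show the contrast for 1 member of each state, taken from RefSeq on GRCm38.p6 from 250 bases before to 50 after the start, on the minus strand and read 5' to 3' along the gene. *Col17a1* is the basal gene with the highest fold, *Klf4* the listed gene with H3K27ac alone and the highest fold among those found in the RefSeq table, and *Lgr6* the primed follicle marker with the widest domain. Capitals again mark motif matches.
Active, Col17a1, chr19:47691993-47692292 (-): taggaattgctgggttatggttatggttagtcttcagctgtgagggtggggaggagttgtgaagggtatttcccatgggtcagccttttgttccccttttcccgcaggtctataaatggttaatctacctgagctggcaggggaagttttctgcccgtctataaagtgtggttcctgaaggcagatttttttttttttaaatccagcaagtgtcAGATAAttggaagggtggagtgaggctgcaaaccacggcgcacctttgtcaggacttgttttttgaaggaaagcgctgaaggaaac
H3K27ac alone, Klf4, chr4:55532426-55532725 (-): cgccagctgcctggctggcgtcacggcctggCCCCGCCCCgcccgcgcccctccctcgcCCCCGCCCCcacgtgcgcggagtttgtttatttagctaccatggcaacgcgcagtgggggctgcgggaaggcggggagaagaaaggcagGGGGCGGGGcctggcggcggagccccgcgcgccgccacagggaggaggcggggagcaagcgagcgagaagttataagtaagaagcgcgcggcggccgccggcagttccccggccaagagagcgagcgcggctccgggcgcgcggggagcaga
Primed, Lgr6, chr1:135105227-135105526 (-): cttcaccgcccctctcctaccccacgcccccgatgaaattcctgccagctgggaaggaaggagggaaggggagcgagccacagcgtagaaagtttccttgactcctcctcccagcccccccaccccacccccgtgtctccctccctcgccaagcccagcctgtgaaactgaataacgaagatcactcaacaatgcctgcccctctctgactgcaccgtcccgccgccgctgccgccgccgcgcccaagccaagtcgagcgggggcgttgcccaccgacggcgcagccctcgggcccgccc
The *Col17a1* promoter had a GC content of 46.3%, 5 CpG and 1 GATA match, at position 215, and lay inside both the domain chr19:47691801-47717600 and the peak chr19:47687549-47693827. The *Klf4* promoter had a GC content of 74.3%, 40 CpG and 3 GC boxes, at positions 32, 60 and 149, and no domain covered it. It fell between the peaks chr4:55527845-55532303 and chr4:55532775-55534146, which ended 122 bp before it and began 49 bp after it. The *Lgr6* promoter had 24 CpG and held none of the motifs.

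Genes for cell adhesion and for AP1 mostly had an active promoter. Of 13 genes of desmosomes and junctions 12 were active, with folds of 56.6 at *Dsp*, which encodes the plaque protein desmoplakin, 51.3 at *Pkp3* and 43.3 at *Perp* and at *Jup*. The exception was *Dsc2*, primed in a domain of 4000 bp. Of 9 AP1 genes 8 were active, among them *Fosl2* with 55.3, *Junb* with 52.0 and *Fos* with 46.0 in a domain of 31000 bp, and *Batf* had neither mark. With a window of 250 bp the active shares were 69.2% for the desmosome list and 55.6% for AP1 genes, in place of 92.3% and 88.9%.

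Suprabasal genes were divided between the states. Of 20 such genes 8 were active (40.0%), 9 primed (45.0%) and 3 had neither mark, against 43.7%, 25.2% and 30.2% of all genes. The active ones included *Krt10*, the early suprabasal keratin, with a fold of 13.3, *Krtdap* with 12.7 in a domain of 25800 bp, *Sbsn* with 10.7 and *Aloxe3*, a barrier lipoxygenase, with 38.0. The primed ones included *Krt1*, the partner of *Krt10*, whose start lay in a 38200 bp domain acetylated elsewhere, and the cornified envelope genes *Ivl* and *Lor* with domains of 4600 and 1600 bp. *Tgm1*, which cross-links the envelope, and *Dsc1* also lay in domains with a peak elsewhere, of 8800 and 11600 bp. *Flg*, *Lce1a1* and *Sprr2d*, all of the terminal layers, had neither mark.

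Signalling pathways were mixed. In the Notch pathway the receptors *Notch1* and *Notch2* had folds of 15.3 and 13.3, the ligands *Jag1* and *Dll1* 33.99 and 16.7, the effector *Rbpj* 29.99 and the modifier *Lfng* 5.998, and the other 6 of 12 genes were primed, namely the receptors *Notch3* and *Notch4*, the ligands *Jag2* and *Dll4* and the targets *Hey1* and *Heyl*. In the EGF pathway 8 of 12 genes were active, with *Egfr* at 27.3, *Erbb2* at 7.33 and *Erbb3* at 29.99, while the receptor *Erbb4* and the ligands *Areg*, *Ereg* and *Nrg1* were primed. In the Hedgehog pathway 7 of 11 genes were active, and the other 4 were primed, among them the ligand *Shh*, the antagonist *Hhip* and the effector and target *Gli1*. With a window of 250 bp the active share of the Hedgehog list was 18.2%, in place of 63.6%, and that of the Notch list 33.3%, in place of 50%.

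Most promoters of hair follicle stem cell (HFSC) genes carried H3K4me1 in EpdSCs, and markers lacked H3K27ac more often than transcription factors did. Of 16 HFSC transcription factors 9 were active, 6 primed and 1, *Nfib*, had H3K27ac alone, and of 12 HFSC markers 3 were active, 8 primed and 1, *Cd34*, the surface antigen that the gate selected against, had neither mark. Active factors included *Sox9* with a fold of 14.7, *Runx1* with 16.7, *Nfatc1* with 9.33 and *Barx2* with 15.99 in a domain of 72600 bp. The transgene also holds the *Sox9* coding sequence, so its reads cannot be told apart from those of the endogenous exons. Whether they add to the *Sox9* value was not tested. The primed factors were *Lhx2* (6800 bp), *Tcf7l1* (3000 bp), *Tbx1* (7000 bp), *Gli2* (7400 bp), *Hmga2* (4400 bp) and *Foxi3* (3200 bp). *Lgr5*, the R-spondin receptor of cycling follicle stem cells, was primed in a domain of 3000 bp. The active markers were *Lrig1*, with a fold of 10.7 in a domain of 78400 bp, *Cxcl14* with 11.3 and *Npnt* with 4.66. Of 14 annotated keratin genes of the hair shaft and inner root sheath 1 was active, 7 were primed and 6 had neither mark. The primed share was 66.7% for the markers, 37.5% for the factors and 7 of 14 for the keratins, against 25.2% of all genes. Fibroblast and endothelial markers, genes of other cell types, were also largely primed, with 6 of 8 in each list.

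Every domain, at promoters and elsewhere, was also assigned to its nearest protein-coding gene. At least 1 active domain was nearest to 10472 genes (47.8%) and at least 1 primed domain to 14176 (64.7%), with 8020 genes in both groups, 6156 with primed domains alone and 2452 with active ones alone. Epidermal transcription factors had 147 active and 361 primed domains, with medians of 6.5 and 12 per gene. Over all genes the domains were 19945 and 67342, or 22.8% active. HFSC transcription factors had 77 and 368, HFSC markers 19 and 81, fibroblast markers 2 and 47 and endothelial markers 6 and 60, whereas housekeeping genes had 21 and 12. Basal genes had 46 and 87. Lists of genes with wide surroundings collect more domains, and this was not adjusted for.

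The gene nearest to the most active domains was *Gata3*, a factor needed for epidermal lipid and barrier formation, with 24 active and 73 primed domains. *Klf5*, a basal epithelial factor, had 20 and 34, *Myc*, which drives growth, 19 and 62, *Tiam1*, a Rac activator, 19 and 18, and *3110018I06Rik* 18 and 64. Among genes with no active domain the most primed ones surrounded *Kcnma1*, a potassium channel gene (44), *Adamtsl1* (35), *Nrp1*, a semaphorin and VEGF co-receptor gene (34), *Ube2e2* (33) and *Myt1l*, a neuronal factor (29). H3K27ac-only peaks were spread over 1013 genes, and the most at one gene were 6 at *Fam71a* and 5 at *Pdia4*, followed by 3 at each of several genes that included *Apol8*, *Bcor* and *Cd44*. Ties at the last place of each ranking were taken in order of name.

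The later lists of induced skin which the rule did not use, were then read at the same positions. Active domains of D0 met an H3K27ac peak in 74.5% (W1), 73.5% (W2), 75.4% (W6) and 61.0% (W12) of cases, and primed domains in 8.43%, 8.36%, 8.43% and 8.28%. H3K27ac-only peaks met one in 43.9%, 51.4%, 57.2% and 40.2%. H3K4me1 was found again at 96.6%, 95.1%, 97.6% and 95.3% of active domains, at 64.9%, 59.5%, 66.2% and 60.9% of primed domains and at 23.1%, 31.7%, 32.5% and 27.7% of H3K27ac-only peaks. The place of the H3K27ac-only class in this order turned with the overlap rule. When the summit had to be inside the domain, these peaks met later H3K27ac in 75.9%, 80.4%, 83.8% and 68.7% of cases, above active domains at 73.6%, 71.2%, 72.5% and 60.8%, and they met later H3K4me1 in 68.98%, 73.1%, 75.1% and 69.2%. Among the stronger 50% of domains by p-value, H3K4me1 was found again at W1 at 99.2% of active and 93.6% of primed domains, a much smaller gap than over all domains. Each later value rests on 1 pooled list, and time, induction and, at W12, grafting cannot be told apart here. The W12 H3K27ac list is also labelled in another way than the other H3K27ac lists, so its calling settings may differ. By their titles the W12 libraries also held a W2 replicate. In the W12 lists 26.1% of H3K27ac peaks touched no domain of their own time point, against 2.57% to 5.90% at the other induced time points.

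**Figure D5:**
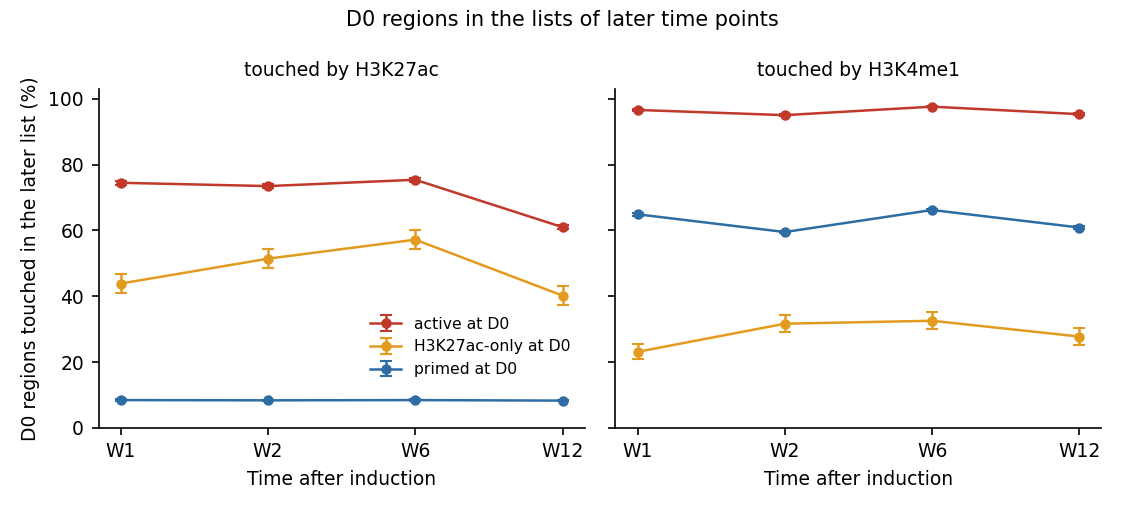
Percent of D0 active, primed and H3K27ac-only regions that overlapped an H3K27ac peak or an H3K4me1 domain (y axis) in the lists of W1, W2, W6 and W12 (x axis), with exact 95% intervals. Active domains stay between 61.0% and 75.4% for H3K27ac and between 95.1% and 97.6% for H3K4me1, and primed domains stay between 8.28% and 8.43% for H3K27ac.

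H3K27ac was found again more often near start sites. Of active domains near start sites 82.4%, 84.3%, 88.9% and 68.0% met a peak at W1, W2, W6 and W12, and of distal ones 61.8%, 56.2%, 53.9% and 49.8%. Distal H3K27ac-only peaks met one in 7.24%, 14.5%, 18.3% and 22.5% of cases and those near start sites in 68.7%, 76.5%, 83.6% and 52.2%. Wide primed domains were acetylated more often than narrow ones. At W1 1.47% of primed domains up to 800 bp, 15.0% of those of 3001 to 5000 bp and 49.1% of those of 10001 to 20000 bp met a peak, and again a wider domain offers more bases.

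The histories of single domains also differed between the classes, and they varied with width. Of active domains 9466 (47.5%) met an H3K27ac peak in every later list, and these had a median width of 6200 bp and were distal in 24.9% of cases. The 2068 (10.4%) that met none had a median width of 3800 bp and were distal in 75.2%. H3K4me1 was present in every later list at 91.0% of active and 42.2% of primed domains, and in none at 131 active (0.657%) and 11814 primed domains (17.5%). Active domains were wider, and these shares were not split by width. For W1 alone the contrast at equal width was smaller among wide domains. Up to 800 bp H3K4me1 was found again at W1 at 60.6% of active and 29.5% of primed domains. At 3001 to 5000 bp the W1 shares were 98.9% and 89.7%, and at 10001 to 20000 bp they were 100% and 99.8%. Of the 5289 active domains without an H3K27ac peak at W2, 4654 (88.0%) still had an H3K4me1 domain there. Primed domains first met an H3K27ac peak at W1 in 5680 cases (8.43%), whereas 2982 (4.43%) did so first in the W2 list, 1974 (2.93%) in that of W6 and 2654 (3.94%) in that of W12, and 54052 (80.3%) never did.

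Of 465 primed domains that gained H3K27ac at W2 and kept it, those with the highest W2 score included domains at *Fgfr1op2* (chr6:146574001-146577400, W2 fold 25.3), 140436 bp from the start site of *Gas1* (chr13:60317801-60320200, 18.9), at *Rpl30*, a ribosomal protein gene (chr15:34443801-34444800, 18.2), and at *Oaz1*, a regulator of polyamine synthesis (chr10:80823401-80826200, 17.5). Of the 2068 active domains that met no later peak, those with the highest D0 score included domains at *Cep95* (chr11:106789801-106792000, D0 fold 44.6), *Usp40* (chr1:88008801-88010400, 30.7), *Zfp943* (chr17:21963401-21964800, 25.3) and *Fth1*, the ferritin heavy chain gene (chr19:9983801-9990200, 22.7). In these last 4 the peak covered 0.136% to 5.21% of the domain, so they were active through the edge of a peak alone.

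H3K27ac was seldom found later at promoters that lacked it at D0. It was present within 1000 bp at W1, W2, W6 and W12 for 89.1%, 90.6%, 95.6% and 74.8% of promoters active at D0, for 13.3%, 14.2%, 22.6% and 10.1% of primed ones, for 86.2%, 91.5%, 91.0% and 78.3% of those with H3K27ac alone (189 genes), and for 0.392%, 0.317%, 0.362% and 1.03% of those with neither mark. Of the 6 primed HFSC factors 4 met H3K27ac at W2, *Lhx2*, *Tcf7l1*, *Tbx1* and *Gli2*, whereas W1 and W6 had 1 each and W12 none. Of the 8 primed HFSC markers 2 did at W1, with 1 each for W2 and W6 and none for W12, namely *Lgr6* at W1 and *Dkk3* at W1, W2 and W6. Of the 9 primed suprabasal genes the numbers in the order of time were 1, 3, 3 and 1. Among single genes *Ivl* did at W2, *Tgm1* from W2 to W12 and *Dsc1* at W6, and *Prdm1* and *Dsc2* did at W2, W6 and W12. The Notch genes *Notch3* and *Jag2* were both acetylated at W2, and *Nrg1* at every later time point. Of the markers of cells that the gate removes, none of the 6 primed fibroblast and 4 primed immune promoters met H3K27ac in a later list, whereas 3 of 6 primed endothelial promoters (*Pecam1*, *Tek* and *Flt1*) and 2 of 6 primed melanocyte promoters (*Dct* and *Mitf*) did in at least 1. Of 7 primed genes of distant lineages 1 did. Of the 16 active basal genes 16, 16, 16 and 15 kept H3K27ac.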

How the data were processed

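H3K4me1, H3K27ac and total H3 were profiled by MINT-ChIP in 38 libraries. Per the study's methods, paired reads were demultiplexed by barcode and trimmed (Skewer), mapped to mm10 (Bowtie2), cleared of duplicates (Picard) and merged over replicates (SAMtools). H3K27ac peaks were called with MACS2 and skin H3K4me1 domains with epic2. The submitters' processing notes name Bowtie2 2.2.9, SAMtools 1.9 and MACS2 2.1.1. Calling settings and controls are not given in the sources used here. The deposited H3K4me1 domains carry a p-value (largest 0.0486), and the deposited H3K27ac peaks carry a score, a fold enrichment (ratio), a -log10 p and q, and a summit offset. Read depth behind either list is unknown.

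From these, the 11 lists used were placed on 21 chromosomes. For each D0 list, 2 intervals on the mitochondrial sequence were set aside. Domain ends were lengthened by 1 bp to complete their 200 bp bins. No interval ran past a chromosome end. Overlap meant at least 1 bp. Distances were taken from the region's edge to 77221 start sites of the 55413 genes of the GENCODE M21 basic annotation, and over 2500 bp was distal. Promoter states used 21938 protein-coding genes and 1000 bp around any start site. Sequence was read from RefSeq GRCm38 in 500 bp windows. The members and the 17 gene lists (220 genes) were chosen with earlier results of these data known. Regions named in the text are the first 5 of each class by score or p-value, of primed domains acetylated from W2 on and of active domains with no later peak, by score. Genes named are those nearest to the most regions of each class and members of the lists. A few of the items this rule selects are not reported here. Groups came from the labels, and no test was run, since each list pools its replicates. Alternatives were another overlap rule, stronger peaks or domains, joined domains, other start sites, distal limits, promoter windows and sequence windows, and the autosomes alone. Functions were tested on simulated data. Python 3.11.15, NumPy 2.4.6, pandas 2.3.3, SciPy 1.17.1, pysam 0.24.0 and matplotlib 3.10.9 were used. The total H3 libraries, 14 barcode files and the lists of cultured cells with SOX9 variants, other than that of H3K4me1 without DOX, were not used here.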

Additional observations from a re-analysis of the deposited data

How the results depend on the processing

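With 1 pooled list per mark, no replicate could be left out. No paired analysis was possible because the replicates were merged before the lists were called. Under every alternative run, active domains were wider than primed ones (by 2400 to 3800 bp in 6 alternatives) and primed domains were more often distal than active ones (by 28.9 to 54.2 percentage points in 9) and than H3K27ac-only peaks (by 26.0 to 66.1 in 9), and more active than primed domains met each mark in every later list (6 alternatives each). The gap for H3K4me1 at W1 was 31.7 percentage points and ran from 5.59, with the stronger domains, to 32.3. With 50% overlap, H3K27ac-only peaks met later H3K27ac at W1 to W12 in 75.5%, 79.9%, 83.2% and 68.5% of cases, against 73.7%, 71.2%, 72.6% and 60.8% of active domains. With an overlap of at least 50% of the shorter interval, the active share was 19.5%, the H3K27ac-only share of peaks 12.1%, the median widths of active domains and H3K27ac-only peaks 5600 and 1131 bp, and the distal shares of active, primed and H3K27ac-only regions 44.7%, 75.9% and 15.1%. With the summit inside the domain these were 19.4%, 12.6%, 5600 and 1135 bp, and 44.9%, 75.8% and 14.6%. With peaks above the median score they were 14.1%, 3.74%, 5400 and 739 bp, and 23.2%, 77.5% and 11.3%. With the stronger 50% of domains by p-value they were 40.9%, 9.30%, 5600 and 510 bp (primed domains 3200 bp), and 40.4%, 73.5% and 34.4%. With domains less than 1000 bp apart joined, the active median width was 5800 bp and the primed distal share 79.6%. Without chromosomes X and Y, the H3K27ac-only share was 3.59% and the median width of that class 438.5 bp. The distal shares were 46.6%, 87.4% and 45.6% with start sites of protein-coding genes alone, 42.7%, 84.2% and 44.7% with a limit of 1000 bp, and 26.4%, 55.3% and 29.4% with a limit of 10000 bp. The H3K27ac-only class moved by over 1.5 times in share, width or distal share under 4 of these, because each changes what counts as a touch or which intervals enter. H3K27ac alone was the promoter state of 7.23% of genes with a window of 250 bp and of 0.401% with 2500 bp. In 200 bp windows, which hold fewer letters, AP1 matches were found in 9.03% of distal active and 9.22% of distal primed domains. The depth behind the lists is unknown, so a region without a peak is one where none was called, and a class can change with depth.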

Other observations

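H3K4me1 in cultured EpdSCs without DOX, from a list that no comparison above used, lay over 89.1% of active domains of D0 skin (88.7 to 89.6), 55.4% of primed domains and 13.8% of H3K27ac-only peaks, with exact 95% intervals for counting error. That list was called by a different tool from the skin domains, so its level cannot be set against those of the skin time points. On chromosome X the share of H3K27ac peaks without a domain of their own time point was 36.8%, 34.8%, 27.5% and 65.7% in the lists of W1, W2, W6 and W12, against 5.43%, 3.22%, 2.10% and 25.4% on the autosomes. Of the 189 genes with H3K27ac alone at their promoters at D0, 57 (30.2%) lay on X, where 6.01% of the 948 protein-coding genes had that state against 0.629% of genes elsewhere.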
